A study of Mus musculus with 6 samples.

Results

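Sertoli cells line the seminiferous tubule and are its only somatic cells inside the basement membrane. They hold the germ cells through every stage of spermatogenesis, form the blood–testis barrier with their tight junctions, feed the germ cells with lactate, iron and retinoids, and engulf the residual cytoplasm that spermatids shed. They answer to follicle-stimulating hormone and testosterone and secrete inhibin, which acts back on the pituitary.

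The 454 barcodes described here were chosen by a marker gate from 48939 barcodes of a single-cell RNA-seq series of mouse testis, which is 0.928% of all barcodes. A barcode was kept when it held at least 1000 UMIs (unique molecular identifiers, 1 per captured transcript), at least 1 UMI for 4 or more of 11 genes, and when these 11 genes made up at least 0.5% of its UMIs. The 11 genes are Clu (clusterin, a secreted chaperone), Defb19 (a secreted β-defensin), Cst9 and Cst12 (cystatins, inhibitors of cysteine proteases), Aard, Rhox8 (an X-linked homeobox gene), Amhr2 (the receptor of anti-Müllerian hormone), Sox9 (the transcription factor that sets Sertoli cell fate), Trf (transferrin, the iron carrier), Gstm6 (a glutathione S-transferase) and Tsx.

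The libraries came from the testes of 8-week-old male wild-type C57BL/6N mice (the labels write C57BL/6) kept for 2 weeks on either of 2 diets, rich in fat (HFD) or poor in fat (LFD), with 3 libraries for each and 10000 cells targeted in each. No transgene, drug or other treatment was given to either group, and diet was the only labelled difference between them. The question put to the comparison was whether the short HFD left a trace in testis cells. Testes were dissociated with collagenase and trypsin and passed through a 40-µm filter, a step that bears on large, branched cells such as Sertoli cells.

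The diet of a library is taken here from its GEO title. In the names of the deposited files the diets are exchanged for each of the 6 libraries. The cell numbers per library listed by the study go with the file names. Every diet difference below is therefore given as libraries labelled HFD minus libraries labelled LFD, and each sign would turn if the file names were right. The libraries called replicate 1 in both groups also stood apart from the other 4. They held the most gated barcodes. Outside the gate, and in the median member, they also held a larger share of RNA of elongating spermatids. For the size, depth and makeup of the population, differences are given within replicate 1 and within the other 4 libraries beside the pooled value. Differences of single genes and of gene lists are given pooled only, with levels by library for many of the named genes. Between 5753 and 11095 barcodes and between 39196921 and 95845514 UMIs were recorded per library.

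Promoter sequences are shown for 4 genes of this population, so that the sequence upstream of genes that mark the same cells can be read side by side. Cst9 and Cst12 are shown as neighbouring cystatin genes with like levels, Amhr2 as the gate gene whose promoter held a match to the steroidogenic factor 1 (SF-1) motif AAGGTCA, and Ctsl as the gene with the highest level among the 15 outside the gate that had the highest ratios to other barcodes. Each line gives the 250 bases before the start of the gene in RefSeq (GRCm38.p6), read in the direction of the gene, with motif matches in capitals.

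Cst9 (chr2:148834897-148835146, plus strand): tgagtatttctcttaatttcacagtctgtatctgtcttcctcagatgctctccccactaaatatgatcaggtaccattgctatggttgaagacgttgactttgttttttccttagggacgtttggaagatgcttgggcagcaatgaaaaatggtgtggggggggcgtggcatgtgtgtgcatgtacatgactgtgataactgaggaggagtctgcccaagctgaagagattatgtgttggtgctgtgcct
Cst12 (chr2:148789115-148789364, plus strand): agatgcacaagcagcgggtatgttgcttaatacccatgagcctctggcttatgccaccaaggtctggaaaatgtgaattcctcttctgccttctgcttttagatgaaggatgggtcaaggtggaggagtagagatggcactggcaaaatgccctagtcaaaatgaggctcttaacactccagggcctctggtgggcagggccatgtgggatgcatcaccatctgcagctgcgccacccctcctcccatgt
Amhr2 (chr15:102445117-102445366, plus strand): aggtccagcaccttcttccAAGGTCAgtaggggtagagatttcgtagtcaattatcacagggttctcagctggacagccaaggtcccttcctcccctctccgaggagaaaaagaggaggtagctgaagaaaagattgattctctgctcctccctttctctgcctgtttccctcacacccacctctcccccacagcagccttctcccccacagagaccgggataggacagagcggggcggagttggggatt
Ctsl (chr13:64370521-64370770, minus strand): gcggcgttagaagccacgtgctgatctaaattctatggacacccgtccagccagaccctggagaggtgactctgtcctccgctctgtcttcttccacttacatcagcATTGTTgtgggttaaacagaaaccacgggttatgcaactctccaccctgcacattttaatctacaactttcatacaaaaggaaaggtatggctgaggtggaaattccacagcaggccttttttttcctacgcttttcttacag

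The capitals mark AAGGTCA in Amhr2, 231 bases before the start on the gene's own strand, and the reverse complement of the SOX motif AACAAT in Ctsl, 143 bases before the start. Both strands were searched for these motifs and for the GATA motif AGATAA. Promoters of the same length held AGATAA in 10.3%, AAGGTCA in 4.05% and AACAAT in 9.65% of 27025 RefSeq genes. RefSeq promoters were matched for 5 of the 11 gate genes (Cst9, Cst12, Amhr2, Gstm6 and Tsx), of which 0, 1 and 0 held the motifs in that order. The remaining gate genes, Clu, Defb19, Aard, Rhox8, Sox9 and Trf, are named without a sequence. The promoters of Cst9 and Cst12 were identical at 140 of 288 aligned positions (48.6%), and a match or its absence in these windows says nothing about a factor's binding.

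The gate genes are spread over 7 chromosomes, all as protein-coding genes in the GRCm38 annotation. Clu lies at chr14:65968483-65981547, Defb19 at chr2:152576086-152580312, Aard at chr15:52040107-52045722 and Sox9 at chr11:112782224-112787760. Cst12 (chr2:148789361-148793546) and Cst9 (chr2:148835147-148838738) are neighbours, and their longest transcripts were identical at 52.9% of aligned positions with no shared run above 9 bases. Rhox8 (chrX:37874778-37878944) and Tsx (chrX:103414467-103424580) are X-linked.

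The gated barcodes were few in every library and unevenly spread. Libraries labelled HFD held 153, 12 and 18 of them, and libraries labelled LFD held 193, 41 and 37, in the order of replicates 1, 2 and 3. As shares of barcodes these were 1.54% (95% exact Clopper-Pearson interval 1.31 to 1.80%), 0.148% (0.0763 to 0.258%) and 0.243% (0.144 to 0.384%) in libraries labelled HFD. The shares were 2.91% (2.52 to 3.35%), 0.370% (0.265 to 0.501%) and 0.643% (0.453 to 0.885%) in libraries labelled LFD. The intervals cover counting error only. Both replicate 1 libraries lay above all others, so that 346 of 454 members came from 2 of 6 mice.

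Depth divided the members. Of the 454, 101 held at least 5000 UMIs and 353 (77.8%) held fewer, while the 101 deep barcodes supplied 75.2% of all 2907050 member UMIs. The deep members had a median of 19678 UMIs and the shallow members 1803, against 2733 in barcodes outside the gate. Deep members numbered 29, 5 and 5 in libraries labelled HFD and 34, 15 and 13 in libraries labelled LFD. Summed profiles of the population therefore describe mainly these 101 barcodes, and counts of barcodes describe mainly the other 353.

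**Figure D1:**
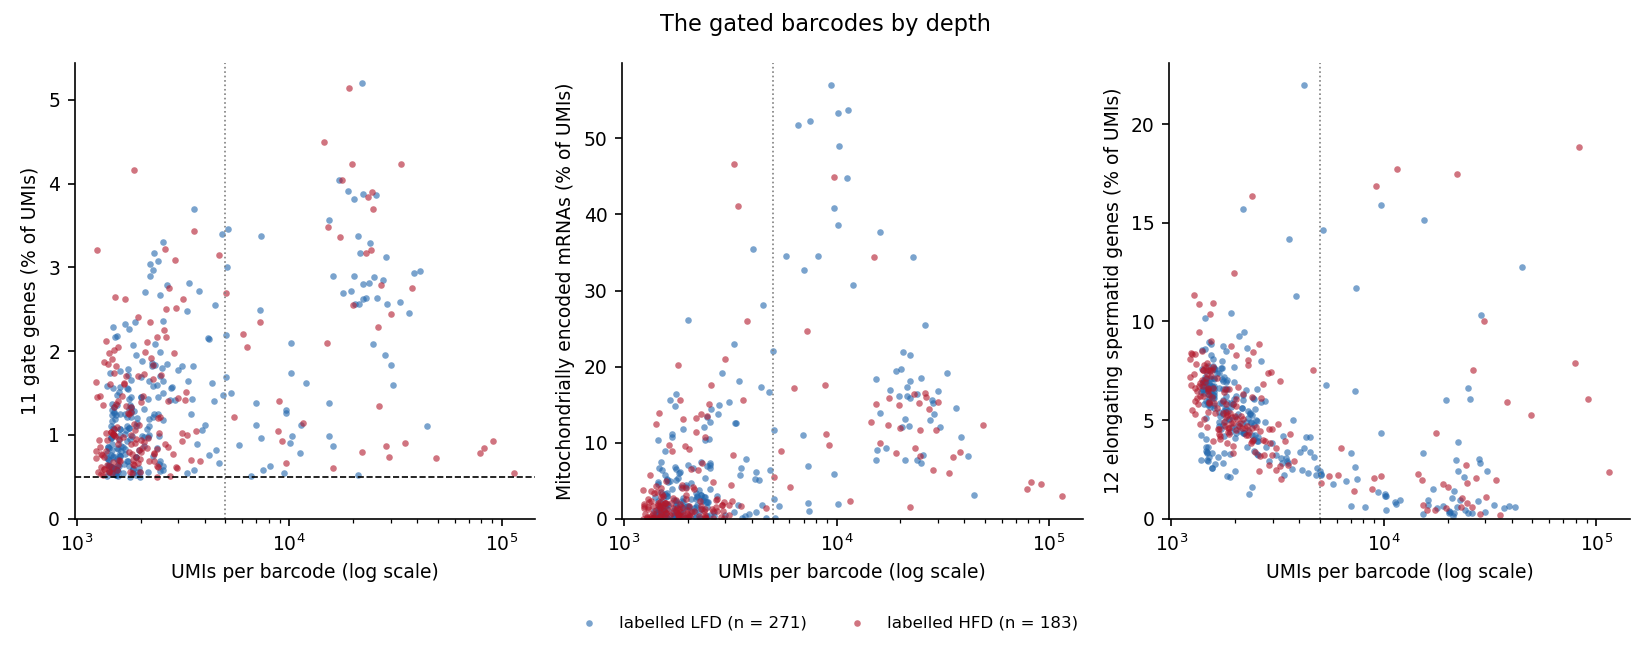
Each point is a gated barcode, with its UMIs on a log axis against its share of UMIs from the 11 gate genes (left, dashed line at the 0.5% limit), from 13 mitochondrially encoded mRNAs (middle) and from 12 elongating spermatid genes (right). The dotted line stands at 5000 UMIs. By their medians, the 353 barcodes to its left have more spermatid RNA and less mitochondrial RNA than the 101 to its right, with overlap.

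The deep and the shallow barcodes differed in more than depth. The median share of mitochondrially encoded mRNAs was 13.7% in deep and 1.63% in shallow members, and that of 12 elongating spermatid genes such as Prm1 and Tnp2, which package sperm chromatin, was 1.82% and 5.72%. Within each of the 6 libraries the median mitochondrial share was higher, and the median spermatid share lower, in the deep members. In barcodes outside the gate the medians were 0.211% and 4.13%, over a mix of libraries in which the replicate 1 libraries, rich in spermatid RNA in and outside the gate, had a smaller part than among the members. In the shallow members the median spermatid share by library was 6.12, 5.19 and 3.69% in libraries labelled HFD and 6.14, 4.25 and 3.06% in libraries labelled LFD. Among all members 31 had over 20% mitochondrial RNA. The share of the gate genes had a median of 1.20% and a maximum of 5.20%, 41 members held all 11 gate genes and 35 held only 4. The part of free RNA in the shallow members was not tested.

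Around the limit of the gate the barcodes formed a continuum. There were 49 members with a gate share between 0.5 and 0.6%, with a median of 1567 UMIs and 6.39% spermatid RNA. Just outside, 57 barcodes with at least 4 gate genes had a share between 0.4 and 0.5%, with a median of 1868 UMIs and 6.07% spermatid RNA. Another 7 barcodes reached 0.5% with only 3 gate genes. When each barcode was thinned to 1000 UMIs before gating, 416 barcodes passed, of which 387 were members.

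Pooled over all members, Defb19 was the highest gate gene at 5504 UMIs per 1000000 UMIs (CPM), followed by Clu at 4422, Cst12 at 2723, Cst9 at 2464, Aard at 1675 and Amhr2 at 1023 CPM. Tsx, Rhox8, Gstm6 and Sox9 stood at 667, 459, 389 and 144 CPM, and Trf was lowest at 57.8 CPM. These 3′ counts record transcripts and not bases, so levels of different genes are set side by side without a length correction. These genes chose the members, so their levels are given as a description with no test. Outside the gate the same genes pooled to between 0.288 CPM (Sox9) and 17.1 CPM (Defb19).

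Trf did not separate the gate from macrophages. In 228 barcodes of a macrophage gate, made in the same way from 10 macrophage markers, Trf reached 172 CPM. After thinning to 1000 UMIs a Trf UMI was found in 2.42% of members and 16.2% of macrophage-gated barcodes. The other 10 gate genes stood at 29.3 CPM or less in the macrophage gate. In a Leydig, peritubular and stromal gate, described below, the 11 gate genes summed to 570 CPM. Their sum was 246 CPM in the macrophage gate and 19528 CPM in members. Clu was seen in 76.7%, Defb19 in 91.2% and Sox9 in 7.71% of thinned members, against 0.877%, 2.19% and 0% of thinned macrophage-gated barcodes. Macrophage-gated barcodes had a median of 3486.5 UMIs before thinning and members 2039.

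Genes outside the gate describe the population further. Among 5062 genes with at least 100 UMIs in members, 1542 were higher in members than in other barcodes of the same library in all 6 libraries, and 340 of them had a ratio of at least 10 (with 5 CPM added to both levels). The 15 highest ratios ran from 122 for Defb36, a second β-defensin beside Defb19 on chromosome 2, to 72.4 for Gsta4, a glutathione S-transferase. Between them stood, in falling order, Ctsl (cathepsin L, a lysosomal protease), Gatm (which makes the precursor of creatine), Ldhb (the B subunit of lactate dehydrogenase), Ptgds (prostaglandin D2 synthase, a secreted carrier), Wfdc10, Etd, 1700018G05Rik, Sparc (a secreted matrix protein), Inha (the inhibin α subunit), 1700011M02Rik, Basp1, Tmem184a and Gm9112.

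Ctsl was the highest of these at 2941 CPM, with 2711, 2189 and 3094 CPM in libraries labelled HFD and 3239, 3137 and 2500.1 CPM in libraries labelled LFD. Sparc followed at 1602 CPM and the other 13 lay between 544 CPM (Gm9112) and 985 CPM (Defb36). Most were rare in macrophages too, but Basp1 stood at 282 CPM, Gatm at 87.9 CPM and Ctsl at 65.6 CPM in the macrophage gate. The level of Inha there was 0.

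**Figure D2:**
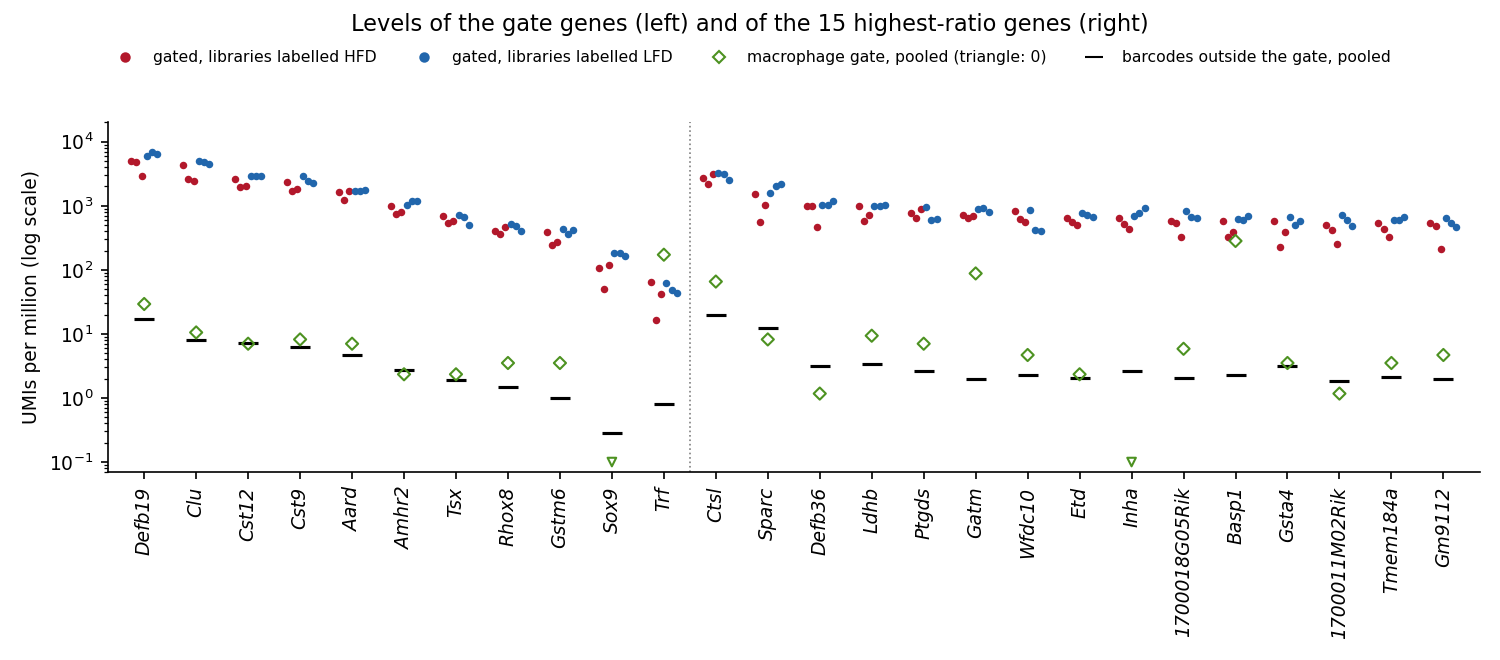
Levels in CPM on a log axis for the 11 gate genes (left of the dotted line) and the 15 genes outside the gate with the highest ratio (right). Dots are the gated barcodes of single libraries, red labelled HFD and blue labelled LFD; diamonds are the pooled macrophage gate and bars the pooled barcodes outside the gate. All dots lie far above the bars, and only for Trf does the diamond lie above the dots.

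The X chromosome held many of the genes that marked the gate against all other barcodes. The same count was not made for other somatic cells, so it is not shown to be particular to this population. Of the 34 genes with a ratio of at least 50, gate genes included, 8 were on X (23.5%), and of the 340 with a ratio of at least 10, 51 were (15%), beside 2.86% of all 5062 genes. Chromosome 2, with Cst9, Cst12, Defb19, Defb36, Gatm, Ptgds and Wfdc10, also held 8 of the 34 (23.5%), but 8.53% of the 340 and 7.76% of all. The X-linked set included 3 short neighbours, Gm9112, 1700011M02Rik and 1700018G05Rik. The transcripts of Gm9112 and 1700011M02Rik were identical at 94.5% of aligned positions and shared a run of 100 bases, so their counts are uncertain as to which gene they came from. Those of 1700018G05Rik and Gm9112 were identical at 73.0%, with a longest shared run of 43 bases.

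Transcription regulators of Sertoli cells not used in the gate were also found in members. Of 12 listed regulators, 9 were higher in members than in other barcodes in all 6 libraries, and the list summed to 45.4 times its level outside the gate. Cited1, a transcriptional co-regulator, stood at 435 CPM and Rhox5, a homeobox gene of the reproductive tract, at 189 CPM. Wt1 (149 CPM), which maintains Sertoli cell identity, Gata4 (38.9 CPM), Sox8 (39.9 CPM), a relative of Sox9, and Nr5a1 (34.1 CPM), which encodes SF-1, were near 0 outside the gate, at 0.424, 0.188, 0.101 and 0.218 CPM. The last 4 were named for their known roles after their values were seen.

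Receptors gave few counts. Rara, a retinoic acid receptor, stood at 49.9 CPM in members. Fshr, the receptor for follicle-stimulating hormone, gave only 26 UMIs over all members (8.94 CPM against 0.0117 CPM outside). Lepr, the leptin receptor, had 0 UMIs, which allows up to 1.03 CPM at this depth. Of 12 listed receptors 3 had enough counts to be tested for diet.

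Secreted hormones and growth factors were led by Inha at 677 CPM and Kitl, the ligand of the KIT receptor on spermatogonia, at 73.3 CPM. Inhbb, the β subunit that pairs with Inha in inhibin B, stood at 62.3 CPM and Inhba had 0 UMIs. Amh, the hormone of the fetal and immature Sertoli cell, gave 24 UMIs and Gdnf, the stem cell niche factor, 6. The secreted carriers, inhibitors and proteases summed to 13.1 times their level outside the gate, with Ctsl and Sparc highest. In 156 barcodes of a gate made in the same way from Leydig, peritubular and stromal markers, this list summed to 6832 CPM, beside 7789 CPM in members.

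The barrier and adhesion list summed to 9.44 times its level outside the gate, and 15 of its 18 genes were higher in members in all 6 libraries. Espn, which bundles actin at the junctions of Sertoli cells and spermatids, stood at 668 CPM and Cldn11, the claudin of the Sertoli tight junction, at 315 CPM against 0.551 CPM outside. Among cytoskeletal genes Tmsb4x (thymosin β4) reached 2295 CPM and Actb 1545 CPM, below their levels in the macrophage gate (8499.6 and 4643 CPM).

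The lactate supply list showed an isozyme split. Ldhb stood at 969 CPM in members and 3.42 CPM outside, whereas Ldha stood at 305 CPM in members and 665 CPM outside. Pkm, the pyruvate kinase gene, was at 444 CPM and Hk2 at 143 CPM, against 69.8 and 1.36 CPM outside. Hk1 was the reverse, at 168 CPM in members and 202 CPM outside. Aldh1a1, which makes retinoic acid, led the retinoid list at 171 CPM.

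Genes for taking up shed cytoplasm and dead germ cells included Lamp1 (a lysosomal membrane protein) at 252 CPM, no higher than the 311 CPM outside the gate, and Gas6, the bridge to the TAM receptors, at 209 CPM against 2.60 CPM. The receptors Tyro3 and Axl, stood at 71.9 and 60.9 CPM. Of lipid genes Scd2, a stearoyl-CoA desaturase, was at 241 CPM and Lrp8, a lipoprotein receptor, at 157 CPM, against 0.912 and 19.7 CPM outside. Glutathione and redox genes were mixed: Gstm5 and Gpx4 were the highest at 2346 and 1773 CPM but higher still outside the gate (3651 and 2311 CPM). Some lists were higher in the Leydig, peritubular and stromal gate than in members. These were receptors (695 and 226 CPM), retinoid genes (2318 and 417 CPM) and lipid genes (2015 and 1635 CPM). So were the phagocytosis (1974 and 1424 CPM), glutathione and redox (8572 and 7714 CPM) and cytoskeletal lists (11049 and 4680 CPM). The immediate early and heat shock list was higher there as well (14462 and 2733 CPM). The lists of regulators (118 and 1310 CPM), hormones (531 and 907 CPM) and barrier genes (1076 and 2041 CPM) were lower there, as was the lactate supply list (2426 and 3425 CPM). In the macrophage gate the phagocytosis list summed to 1499.6 CPM, also above its level in members.

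**Figure D3:**
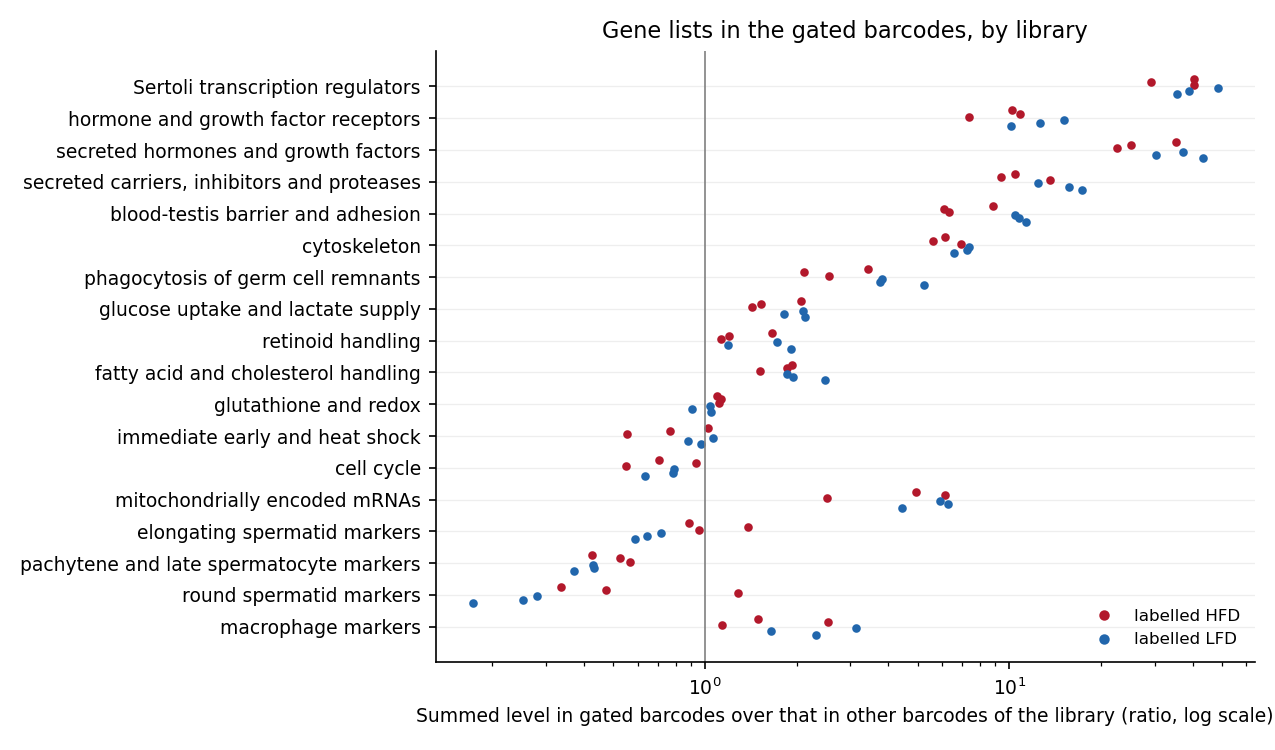
Ratio, on a log axis, of the summed level of each gene list in the gated barcodes to that in the other barcodes of the same library. Each dot is a library, red labelled HFD and blue labelled LFD. Lists of regulators, receptors, secreted proteins and barrier genes and the mitochondrially encoded mRNAs lie to the right of 1. The markers of pachytene and late spermatocytes and of round spermatids lie to the left in most libraries.

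Markers of other cells were looked for in the members. Of 10 macrophage markers 5 had 0 UMIs in all members, including Csf1r, Adgre1 and Tyrobp, and Cd74 and C1qa gave 22 and 2 UMIs. Mrc1, the mannose receptor, was the exception with 280 of the list's 393 UMIs (96.3 CPM, against 0.696 CPM outside the gate). Of 5 erythroid markers the 4 haemoglobin genes had 0 UMIs, and Alas2, a haem synthesis enzyme, had 264 (90.8 CPM, against 0.361 CPM outside). Endothelial markers gave 18 UMIs and peritubular and stromal markers 61. Spermatid RNA was in nearly every barcode: after thinning, a Prm1 UMI was found in 97.4% of members and 99.1% of macrophage-gated barcodes. No member passed the macrophage gate, 4 were among the 3356 barcodes with the top doublet (Scrublet) scores, and no barcode sequence was a member in more than 1 library.

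Leydig markers summed to 1223 UMIs, which came mainly from 2 members that also passed a Leydig, peritubular and stromal gate. These were a barcode of 16034 UMIs in HFD replicate 1, with 3.03% Leydig marker UMIs, and a barcode of 21114 UMIs in LFD replicate 3, with 3.27%. Insl3, the Leydig hormone, was seen in those libraries alone, at 144 CPM and 1281 CPM.

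The deep members also varied among themselves. Over 99 deep members, without the 2 above, and 510 genes with a mean of at least 2 UMIs per member, the spread beyond counting noise had a median coefficient of variation of 0.363, relative to the summed member genes of each barcode. Of the 10 gate genes among them, 9 lay below it, from Cst12 at 0.209 to Tsx at 0.352, and Rhox8 lay above it at 0.429. The gate left out barcodes low in these genes, which favours a low spread, so their values are no finding. At the other end, and named after their values were seen, stood Prnd at 2.50, seen in 37 of 99 barcodes with up to 67 UMIs in a barcode, and Aqp8, a water channel, at 1.71, seen in 28. Rhox5 (1.09) and Ptgds (0.983), both of the lists above, were also spread widely, while Ctsl was at 0.401. These values describe spread among barcodes of 6 mice and carry no test.

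Diet was compared first in the size and makeup of the population. The share of gated barcodes was 0.644% ± 0.778 (SD, n = 3) in libraries labelled HFD and 1.31% ± 1.40 (SD, n = 3) in libraries labelled LFD, a difference of -0.665 percentage points (exact two-sided permutation p = 0.50). With 3 libraries against 3 the smallest p this test can give is 0.10. The difference was -1.37 points within replicate 1 and -0.311 points within the other 4 libraries, and it was 0.137 points when LFD replicate 1 was left out. Fewer Sertoli cells in the suspension and fewer that passed the filter cannot be told apart here.

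The median UMI count of members was 1904, 2687.5 and 2524 in libraries labelled HFD and 1865, 4309 and 1830 in libraries labelled LFD. The groups overlapped, and the exact two-sided permutation p was 1.00. The difference of the means was -296 UMIs, with 39.0 UMIs within replicate 1 and -464 UMIs within the other 4 libraries, and it was 524 UMIs without LFD replicate 2.

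Mitochondrially encoded mRNAs took 8.20, 16.0 and 7.74% of member UMIs in libraries labelled HFD and 11.5, 15.8 and 20.5% in libraries labelled LFD. The means were 10.7% ± 4.65 and 15.9% ± 4.52 (SD, n = 3 each), a difference of -5.29 points (exact two-sided permutation p = 0.30), with -3.31 points within replicate 1 and -6.28 points within the other 4. HFD replicates 1 and 3 lay below all others, and HFD replicate 2 lay among the libraries labelled LFD. Leaving out the 4 members over 50000 UMIs gave -3.15 points (exact p = 0.50). In the shallow members alone the difference was -0.400 points. Outside the gate the mitochondrial shares were 1.67, 2.60 and 3.08% in libraries labelled HFD. They were 1.94, 2.51 and 4.62% in libraries labelled LFD.

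RNA of elongating spermatids made up 5.73, 5.09 and 2.76% of member UMIs in libraries labelled HFD and 4.25, 2.57 and 1.83% in libraries labelled LFD. The means were 4.53% ± 1.56 and 2.88% ± 1.24 (SD, n = 3 each), a difference of 1.64 points (exact two-sided permutation p = 0.20). Within replicate 1 it was 1.48 points and within the other 4 libraries 1.73 points. Without the 4 members over 50000 UMIs it was 1.28 points overall and -0.0837 points within replicate 1. Among barcodes outside the gate the shares were 6.49, 3.67 and 2.88% in libraries labelled HFD and 5.95, 3.995 and 3.12% in libraries labelled LFD.

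Those 4 members weigh on the summed profiles of HFD replicates 1 and 3. A barcode of 114514 UMIs in HFD replicate 3, among the top doublet scores, supplied 52.6% of all member UMIs of its library. The other 3 were in HFD replicate 1, with 91298, 82539 and 79005 UMIs, and that of 82539 UMIs had 18.8% spermatid RNA. No member of a library labelled LFD exceeded 44499 UMIs. Their gate share lay between 0.546 and 0.933%, near the limit of the gate.

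**Figure D4:**
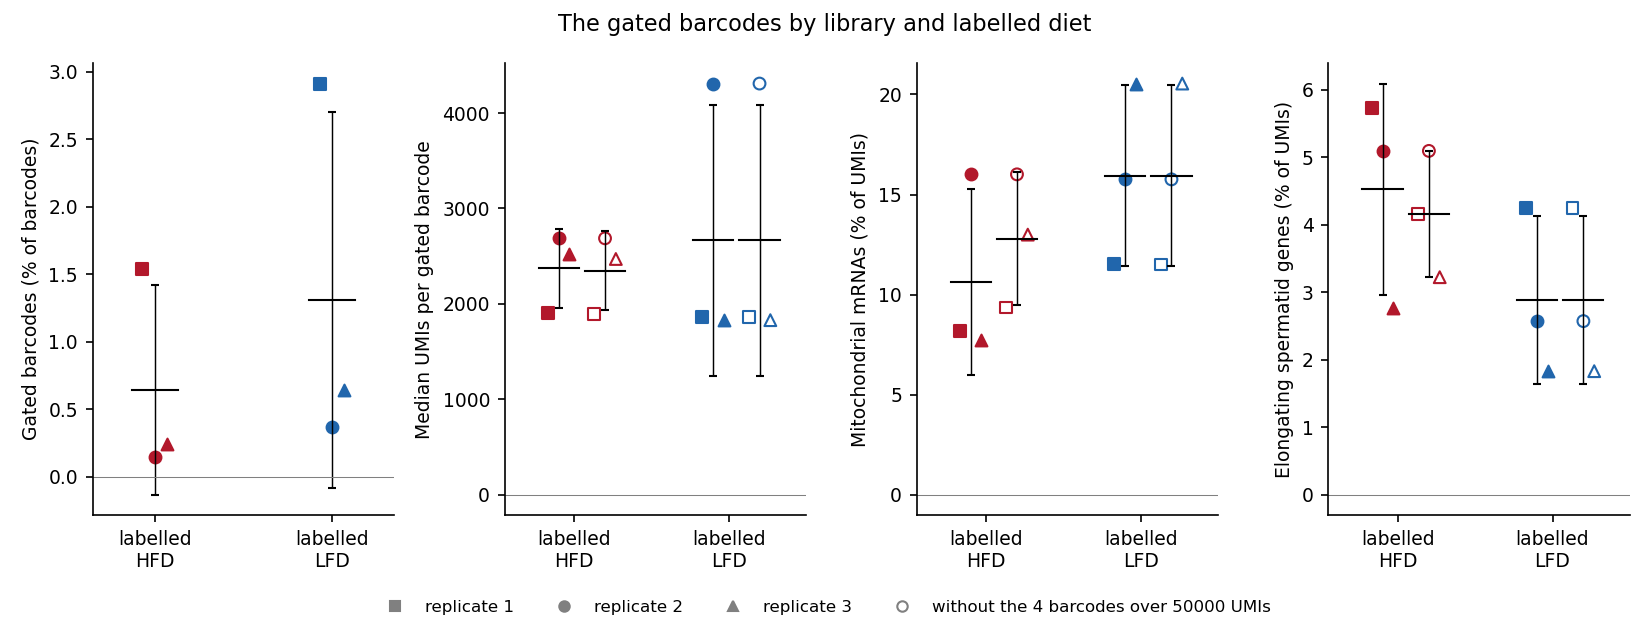
Values of each library for the share of gated barcodes, the median UMIs per gated barcode, and the mitochondrial and elongating spermatid shares of their summed UMIs. Squares, circles and triangles are replicates 1, 2 and 3, horizontal bars the mean and whiskers the SD of 3 libraries; open symbols leave out the 4 barcodes over 50000 UMIs. The groups overlap in all 4 measures.

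Gene by gene, no diet difference passed the test. Counts were summed over the members of each library and 5116 genes were tested; 0 genes (0.0%) had an adjusted p under 0.05 by edgeR's quasi-likelihood test with Benjamini-Hochberg adjustment, the smallest being 0.196. Before adjustment 800 genes had p under 0.05, 600 of them higher in libraries labelled HFD. Of these 600, 564 were genes higher outside the gate than in it. DESeq2 on these counts called 36 genes, 33 of them higher outside the gate, with 605 under 0.05 before adjustment. Without HFD replicate 1, edgeR called 356 of 4838 genes, 292 of them higher outside the gate. Without LFD replicate 1 it called 89 of 4812, 74 of them higher outside the gate. The 800 of 5116 became 162 of 5165 genes when the 4 members over 50000 UMIs were left out. In the shallow members alone it was 30 of only 1830 genes, without HFD replicate 2, which had 7 such members. The median standard error of a log2 difference was 0.35, and HFD replicates 2 and 3 rest on 12 and 18 members.

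The 3 genes with the smallest p were Spz1, Chn2 and Iqcf5, all higher outside the gate than in it. Spz1, a spermatogenic transcription factor, stood at 735, 494 and 849 CPM in the members of libraries labelled HFD and at 411, 206 and 237 CPM in libraries labelled LFD. Its groups did not overlap, and its log2 difference was 1.32 ± 0.29 (SE), with an adjusted p of 0.196. Without the 4 deepest members the levels of Spz1 were 512, 494 and 407 CPM against 411, 206 and 237 CPM, the groups overlapped, and the log2 difference was 0.67 (edgeR adjusted p = 1.00). Iqcf5 and Chn2 had log2 differences of 1.46 and 1.61, both with an adjusted p of 0.196, and 0.65 and 0.93 without those members. Outside the gate Spz1, Iqcf5 and Chn2 were at 705, 304 and 158 CPM.

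The direction of the differences was not the same in genes of the gate and genes of other barcodes. Of the 2504 tested genes that were higher outside the gate, 78.3% had a positive difference (median log2 0.33) and 17.5% lay higher in all 3 libraries labelled HFD than in all 3 labelled LFD, beside 9.17% of all 5116 genes. Of the 1527 tested genes at least 2-fold higher in members, 9.36% had a positive difference (median log2 -0.38) and 29.2% lay lower in all 3 libraries labelled HFD, beside 12.3% of all genes. Without the 4 deepest members those medians were 0.11 and -0.16. The shares not overlapping became 9.35 and 9.95%, beside 5.79 and 5.22% of all genes. The spermatid RNA share of the summed profiles moved the same way, as given above, and its part in these differences was not tested.

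**Figure D5:**
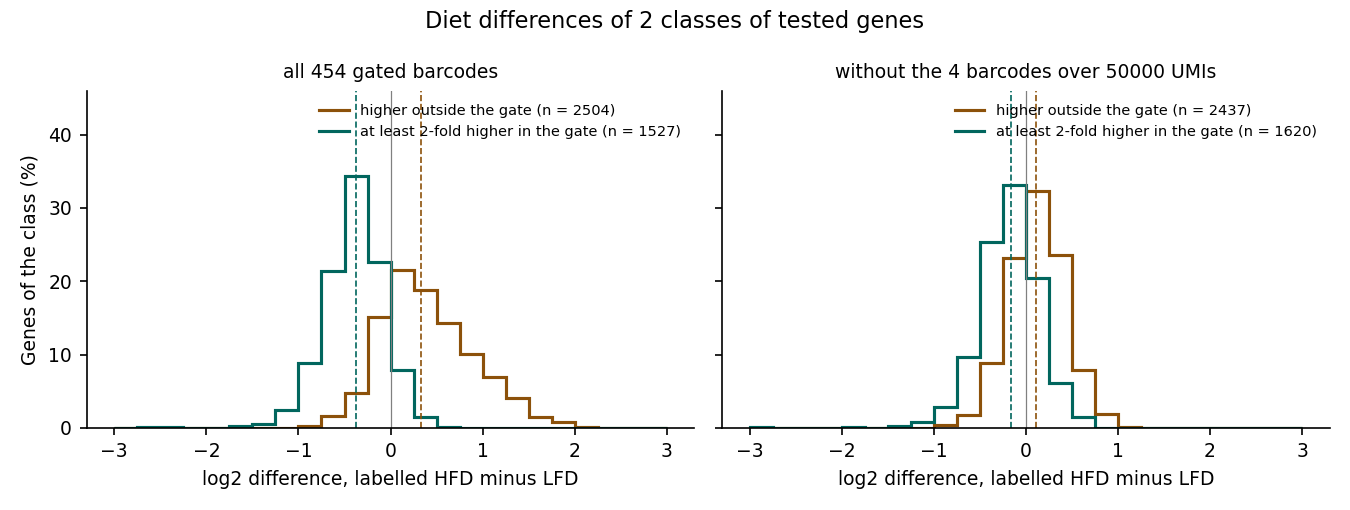
Share of genes by log2 difference (libraries labelled HFD minus labelled LFD) in bins of 0.25, for tested genes higher outside the gate (brown) and genes at least 2-fold higher in the gate (green), with dashed lines at the medians. With all 454 members the medians are 0.33 and -0.38; without the 4 members over 50000 UMIs they are 0.11 and -0.16.

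All 11 gate genes had log2 differences below 0 (median -0.36), and 6 of 11 lay lower in all 3 libraries labelled HFD, beside the 12.3% of all genes. The gate itself required these genes, so these values are a description with no test. Clu stood at 4294, 2633 and 2420 CPM in libraries labelled HFD and at 4964, 4849 and 4439 CPM in libraries labelled LFD (log2 difference -0.57). Sox9 stood at 105, 49.4 and 119 CPM against 181, 180.2 and 167 CPM (log2 difference -0.78). Without the 4 deepest members 1 of the 11 did not overlap, beside 5.22% of all genes, and Sox9 stood at 115, 49.4 and 223 CPM in libraries labelled HFD.

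The lists of Sertoli functions gave no called gene in either direction, and their median log2 differences, given below, stand beside a median of -0.02 over all 5116 genes. Counts of genes whose groups did not overlap are to be read beside 12.3% lower and 9.17% higher of all genes, or 5.22% and 5.79% without the 4 deepest members, and beside the 29.2% lower (9.95% without those members) of genes at least 2-fold higher in the gate. Of 15 tested barrier and adhesion genes none was positive (median log2 -0.38), and 7 lay lower in all 3 libraries labelled HFD (12.3% of all genes did) and 3 without the 4 deepest members (5.22% of all). Itgb1, the integrin β1 subunit, had the smallest p of this list, at 64.3, 65.8 and 32.1 CPM in libraries labelled HFD and 109, 121 and 140.4 CPM in libraries labelled LFD (log2 difference -1.14 ± 0.34 SE, edgeR adjusted p = 0.196). Its groups did not overlap with or without the deepest members, where the difference was -0.89. Espn stood at 649.7, 65.8 and 372 CPM against 664, 889.8 and 868 CPM, the value of HFD replicate 2 came from 12 members, and the groups overlapped without the deepest members.

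Of 10 tested regulators 1 was positive (median log2 -0.32) and 2 lay lower in all libraries labelled HFD with and without the deepest members, beside 12.3% and 5.22% of all genes. Etv5, an ETS factor that Sertoli cells need to keep spermatogonial stem cells, was the gene of smallest p, at 25.2, 0 and 4.59 CPM in libraries labelled HFD and 52.4, 61.9 and 48.2 CPM in libraries labelled LFD. Its log2 difference was -1.52 ± 0.45 (SE) with an edgeR adjusted p of 0.196, from 112 UMIs in all. Rhox5, at 213, 98.7 and 188 CPM against 202, 141 and 118 CPM, differed by 0.24 and overlapped. Of 3 tested receptors none was positive (median log2 -0.66). Of these, 1 lay lower in all libraries labelled HFD with and without the deepest members, beside 12.3% and 5.22% of all genes. Rara, at 43.8, 49.4 and 23.0 CPM against 63.8, 45.1 and 52.6 CPM, overlapped between the groups (log2 difference -0.50 ± 0.36 SE, edgeR adjusted p = 0.534).

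Of 4 tested hormones and growth factors (median log2 -0.54) 2 lay lower in all libraries labelled HFD and 0 without the deepest members, beside 12.3% and 5.22% of all genes. Inha stood at 652, 510.1 and 432 CPM in libraries labelled HFD and 683, 766 and 912 CPM in libraries labelled LFD (-0.52 ± 0.25 SE, edgeR adjusted p = 0.327). Without the deepest members Inha was at 737, 510.1 and 726 CPM in libraries labelled HFD and overlapped. Of 9 tested carriers, inhibitors and proteases (median log2 -0.41) 4 lay lower and 1 higher, beside 12.3% and 9.17% of all genes, and without the deepest members 0 lay lower and 1 higher, beside 5.22% and 5.79%. Sparc was at 1549, 559.5 and 1019 CPM against 1572, 2016 and 2171 CPM (-0.81, edgeR adjusted p = 0.242). Without the deepest members it was at 1724, 559.5 and 1675 CPM in libraries labelled HFD, and the groups overlapped. Cst8, a cystatin of germ cells and epididymis, ran the other way at 350.5, 494 and 679 CPM against 300.3, 228 and 246 CPM, and it was at 468 CPM outside the gate.

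Of 14 lactate supply genes 4 were positive (median log2 -0.30) and 2 lay higher in all libraries labelled HFD, beside 9.17% of all genes, with 1 left without the deepest members, beside 5.79%. Hk1 stood at 214, 362 and 216 CPM in libraries labelled HFD and 152, 78.8 and 61.4 CPM in libraries labelled LFD (1.31 ± 0.36 SE, edgeR adjusted p = 0.196), and it is a gene that was higher outside the gate. Without the deepest members Hk1 was at 162, 362 and 77.4 CPM in libraries labelled HFD, and the groups overlapped. Ldhb, which marks the gate, was at 1006, 576 and 716 CPM against 996, 974 and 1018 CPM and overlapped. In the phagocytosis list (median log2 -0.45) 4 of 13 tested genes lay lower and 3 did so without the deepest members, beside 12.3% and 5.22% of all genes, with Itgb5, an integrin β subunit, at 97.9, 32.9 and 59.7 CPM against 129.6, 166 and 171 CPM (-1.01 ± 0.34 SE, edgeR adjusted p = 0.208).

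Lipid and cholesterol genes gave 5 positive differences of 15 tested (median log2 -0.20), with 2 lower in all libraries labelled HFD and none higher, near the 12.3% of all genes that lay lower, and 1 lower without the deepest members (5.22% of all). Scd2 was at 212, 148 and 110.2 CPM in libraries labelled HFD and 277, 284 and 307 CPM in libraries labelled LFD (-0.79 ± 0.28 SE, edgeR adjusted p = 0.213), and its groups stayed apart without the deepest members. Of 11 immediate early and heat shock genes (median log2 -0.38) 2 lay lower and 1 did so without the deepest members, beside 12.3% and 5.22% of all genes. Jun, an immediate early transcription factor, was at 172, 49.4 and 78.1 CPM against 283, 203 and 215 CPM. Retinoid genes (4 tested), glutathione and redox genes (15), cytoskeletal genes (6) and cell cycle genes (10) had median log2 differences of -0.20, -0.30, -0.26 and -0.12, with 1, 1, 2 and 1 of them lower in all libraries labelled HFD (12.3% of all genes). In the glutathione and the cell cycle list 1 gene each lay higher (9.17% of all). Without the deepest members the numbers lower were 1, 0, 0 and 1 (5.22% of all), and 1 cell cycle gene lay higher (5.79% of all).

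All 13 mitochondrially encoded mRNAs were tested, all differences were below 0 (median log2 -0.62), and none was called or kept the groups apart. The highest, mt-Co1, a subunit of cytochrome c oxidase, stood at 18436, 38722 and 17231 CPM in libraries labelled HFD and 26537, 34727 and 45405 CPM in libraries labelled LFD (-0.48 ± 0.42 SE, edgeR adjusted p = 0.614). The largest difference was that of mt-Atp8, at -1.19 ± 0.54 (SE) with an edgeR adjusted p of 0.309 and 378 UMIs in all. In the other direction all 12 elongating spermatid genes and all 7 tested round spermatid genes were positive, with medians of 0.78 and 1.61, and 4 and 3 of them lay higher in all libraries labelled HFD, beside 9.17% of all genes and 17.5% of the genes higher outside the gate. Without the 4 deepest members 0 of either list did, beside 5.79% of all genes.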

How the data were processed

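Testes of 6 mice were profiled by droplet 3′ RNA-seq, 3 libraries per diet. The authors mapped reads to the mouse genome (mm10, GRCm38) and counted UMIs with Cell Ranger 6.0.1, per the labels and the methods, and deposited filtered matrices of raw UMI counts for 32285 genes. The labels and the methods name different versions of the library kit. Libraries held between 39196921 and 95845514 UMIs, and no barcode had fewer than 1221.

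Samples were grouped by GEO title. Member counts were summed per library and tested with edgeR 4.0.16 (quasi-likelihood, TMM, filterByExpr, two-sided, Benjamini-Hochberg over all genes tested; call at adjusted p under 0.05), with DESeq2 1.42.0 as an alternative. Libraries with under 10 members were left out of a fit. Shares were compared with exact permutation tests over libraries. Nothing in the sources used here says more of the replicates than that they are mice, so p-values measure the spread between these libraries. Doublets were scored with Scrublet (scanpy 1.11.5) and kept, except in an alternative. Levels outside the gate exclude members only. The test was tried on simulated counts in which 200 genes were changed. These were drawn only from genes above a minimum level, so recovery of genes with low counts was not tried. At a log2 change of 1, edgeR called 3.5% of them and DESeq2 11%. At a log2 change of 2 they called 91.5% and 81%. Of the unchanged genes, edgeR and DESeq2 called 2 each at a log2 change of 1, and 15 and 8 at 2.

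The members, gene lists and tests were chosen with earlier results of these data known. Genes were named by a rule: all gate genes, the 15 highest ratios outside the gate, the 3 smallest diet p, from each function list the 2 highest genes and the smallest p, and the mitochondrial mRNA that differed most; other genes were named after their values were seen. Some genes that the rule named are not reported here. Symbols carried by 2 genes (78 rows) were kept apart by identifier. Coordinates are those of GENCODE vM21 (GRCm38), and promoters those of RefSeq GRCm38.p6. Alternatives covered the gate limits, filters, normalization, batch, and libraries left out.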

Additional observations from a re-analysis of the deposited data

How the results depend on the processing

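The count of genes called between diets was 0 in 20 of 24 alternatives, among them DESeq2's size factors in edgeR, a batch term for replicate 1, every other gate limit and the removal of spermatid genes, of top doublet scores, of members over 20% mitochondrial RNA and of members over 50000 UMIs. It was 125 with no filter on low counts and 36 by DESeq2, of which 102 and 33 were genes higher outside the gate than in it. Over the fits that leave out a replicate it ran from 0 to 356; the calls came without HFD replicate 1 (356) and without LFD replicate 1 (89), and the cause was not tested. Between libraries of the same replicate number, deviations from the group means correlated at -0.066, 0.098 and -0.042. Some of these sums rest on few members, both replicate 1 libraries stood apart in their share of gated barcodes, and a shared batch was not tested. With the replicate block 0 genes were called (smallest edgeR adjusted p 0.0539). In that block the share of gated barcodes differed by -0.665 points (exact sign-flip p = 0.25, the smallest that 3 pairs allow). The shares of mitochondrial and of spermatid RNA kept their sign in all 20 alternatives each, from -7.97 to -0.400 and from 0.341 to 2.53 points. The share of gated barcodes changed sign in 1 of 17 alternatives and the median UMI count in 3 of 16. In each of these tallies the limit of 500 UMIs could change nothing, since no barcode had fewer than 1221 UMIs. For the share of gated barcodes, all barcodes as denominator could change nothing either. Among 61 named genes 112 of 1407 alternative values had another sign, and 15 genes were called under some alternative. Depth limits the rest, since 12 and 18 members stand for HFD replicates 2 and 3 and a single barcode supplied 52.6% of the member UMIs of the latter. The alternatives on members over 50000 UMIs, on thinning, on depth strata and on genes higher in members were chosen after seeing the data. The gate at 1% left HFD replicate 2 with under 10 members and out of the fit, as did the shallow stratum.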

Other observations

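Some genes were higher in the deep than in the shallow members of the gate, and the genes of both paragraphs here were named after their values were seen. Lrp8 stood at 198 CPM in deep members and 31.9 CPM in shallow members, Jun at 258 and 51.4 CPM, Espn at 829 and 181 CPM, and Scd2 at 296 and 72.2 CPM, whereas Cst9 (2515 and 2309 CPM), Tsx (685 and 612 CPM) and Wfdc10 (744 and 707 CPM) were nearly level. Gstm5, which is higher outside the gate, ran the other way at 1878 and 3770 CPM. All these levels were pooled over libraries, which went opposite ways for Wfdc10. In deep and shallow members it was at 712 and 379 CPM in HFD replicate 2 and at 335 and 709 CPM in LFD replicate 2. The 101 deep barcodes came from 6 mice and these values carry no test.

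Alas2 and Mrc1 stood out among lists meant to mark other cells. Alas2, the erythroid form of the first haem synthesis enzyme, was found at 90.8 CPM in members while Hba-a1, Hba-a2, Hbb-bs and Hbb-bt had 0 UMIs in them, and its level by library was 96.0, 49.4 and 73.5 CPM labelled HFD and 71.0, 118 and 136 CPM labelled LFD. Outside the gate it was at 0.361 CPM. Malat1, a nuclear RNA, was at 1631, 1251 and 1387 CPM in libraries labelled HFD and 2411, 2520 and 7746 CPM in libraries labelled LFD, with an edgeR adjusted p of 0.196, and it varied widely among deep members (a coefficient of variation of 0.874 beyond counting noise, against a median of 0.363).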
